A study of Homo sapiens with 18 samples.

Results

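The genes described here carry peptide antigen to the cell surface on major histocompatibility complex (MHC) molecules. They were chosen by name, as 32 genes of MHC class I and class II antigen processing and presentation, and 31 of them had a row among the 35044 rows of the raw count table. HLA-DPB1 had none. The RNA-seq experiment tested olaparib, an inhibitor of the poly(ADP-ribose) polymerases that act in DNA repair, in cells described as 2 versions of a BRCA1-mutated breast carcinoma line, HCC1937. One, HCC1937-EV, holds a vector without insert. In the other, HCC1937-OE-BRCA1, the wild-type gene is overexpressed. Libraries were made from untreated cells and from cells given 10 µmol/L olaparib for 12 h or 24 h, with 3 libraries in each of the 6 groups, or 18 in all. No library is labelled as untreated at 12 h or 24 h. Olaparib and time in culture therefore cannot be told apart in changes within a line. Nothing in the labels says that replicates came from separate cultures, so the p-values measure the spread between these libraries, which may be technical. The groups are shortened to EV and OE below. They follow the sample titles, since the other labels name olaparib also for the untreated libraries and give the genotype of the EV libraries as WT.

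Class I molecules present peptides from proteins made inside the cell. The proteasome, in which the inducible subunits PSMB8, PSMB9 and PSMB10 can replace the constitutive PSMB5, PSMB6 and PSMB7, cuts proteins into peptides, TAP1 and TAP2 pump the peptides into the endoplasmic reticulum, ERAP1 and ERAP2 trim them, and chaperones load them onto a heavy chain (HLA-B, HLA-C and relatives) paired with beta-2 microglobulin, the product of B2M. Class II molecules present peptides made in lysosomes, and their chains are guarded by the invariant chain CD74 and loaded by HLA-DM. NLRC5 is the transactivator of class I genes and CIITA that of class II genes, and interferons induce most of this machinery.

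Levels are given as CPM, the count scaled by the effective size of its library. The 18 libraries held 15081973 to 17571922 counts (median 16077299). A gene was called changed at an adjusted p under 0.05 (edgeR, quasi-likelihood F-test, Benjamini-Hochberg over 18335 genes), and 29 of the 31 members were tested, HLA-DPA1 and HLA-DMB being too low. Of the 29, 21 passed the filter on low counts in both lines, 7 passed it through the OE libraries alone (HLA-B, HLA-C, HLA-F, PSMB8, HLA-DRA, HLA-DRB1 and CTSS) and IFI30 passed it through the EV libraries alone. Class I and class II genes are much alike in sequence, and the handling of reads that match several of them is not given in the sources used here, so the level of each single chain is uncertain. In GENCODE 29 the model of HLA-B (chr6:31269491-31357188, GRCh38, minus strand) overlaps that of HLA-C (chr6:31268749-31272130), and the model of PSMB9 (chr6:32844136-32859585, plus strand) overlaps those of PSMB8 and TAP1 on the other strand, so these counts are uncertain in the same way.

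The libraries labelled EV lacked several markers of the labelled line. EPCAM, an epithelial adhesion molecule, lay between 0 and 0.0617 CPM in the 9 EV libraries and between 252 and 352 CPM in the 9 OE libraries. KRT5, a basal keratin, reached 0.124 CPM in EV and 1062 to 1742 CPM in OE, and the E-cadherin gene CDH1 lay at 0.313 to 1.20 CPM in EV and 330 to 488 CPM in OE. Of 8 epithelial markers, 4 stayed under 1 CPM in all EV libraries, whereas KRT8 and KRT18 were high in both lines. BRCA1 itself was 118 ± 7.70 CPM in untreated EV and 139 ± 24.0 CPM in untreated OE (SD, n = 3), a difference that did not pass the test (log2 fold change 0.24, SE 0.11, adjusted p = 0.065). Whatever separates these libraries besides the vector cannot be told apart from BRCA1 in any difference between the lines. Changes after olaparib were therefore read within each line first.

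In untreated cells, OE libraries held far more class I chain transcript than EV libraries. HLA-B gave 1000, 1389 and 1194 CPM in the untreated OE replicates 1 to 3 and 0, 0.0618 and 0 CPM in the EV replicates, the last being 1 count in all 3 libraries together. The ratio of summed counts was 57910, with an exact 95% Clopper-Pearson interval of 10390 to 2287000 that covers counting error only. HLA-C gave 494, 699 and 717 CPM in OE and 0.249, 0.124 and 0.0617 CPM in EV. HLA-F, a non-classical heavy chain, gave 45.7, 68.6 and 57.6 CPM in OE and 0 counts in all 9 EV libraries. Against a floor of 3 counts over the untreated EV group, it was at least 926-fold higher in OE. These genes of the MHC region were thus near or at 0 throughout the libraries labelled EV, and the groups of the lines were far apart. Fewer cells expressing a gene and less RNA per cell cannot be told apart in such bulk samples.

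B2M (chr15:44711487-44718877, plus strand) encodes the light chain and was transcribed in both lines. It gave 410, 412 and 278 CPM in untreated OE and 85.3, 81.7 and 82.0 CPM in untreated EV, with no overlap (log2 fold change 2.14, SE 0.14, adjusted p = 2.1e-11). HLA-E, which presents leader peptides of other class I chains, was the exception among the heavy chains. It gave 40.9, 19.5 and 22.4 CPM in OE and 20.1, 19.5 and 23.6 CPM in EV, and did not pass the test (log2 fold change 0.39, SE 0.34, adjusted p = 0.31).

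Over all members, 21 were higher and 4 lower in untreated OE than in untreated EV, while 72.7% of all genes tested differed, 39.4% being higher and 33.3% lower. The median log2 fold change of the 29 members was 1.57, against 0.11 over all genes tested. Of these members, 7 passed the filter only through OE and IFI30 only through EV, in each case the line where they were higher. Neither the count nor the median therefore speaks for the members as a group. Blood and immune markers, 9 of 12 of which had a row, summed to 1.30 to 2.65 CPM in EV and 98.2 to 161 CPM in OE, led by NCAM1 and CD14, while their defining member PTPRC was at 0 in EV and at 0.431 to 2.22 CPM in OE. The part of these markers in the line difference was not tested.

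Among the inducible proteasome subunits, PSMB8 gave 33.3, 45.6 and 14.9 CPM in untreated OE and 0.249, 0.124 and 0.247 CPM in untreated EV. PSMB10, on chromosome 16 and so outside the MHC region, gave 26.5, 41.2 and 40.4 CPM in OE and 2.05, 3.46 and 2.71 CPM in EV (log2 fold change 3.71, SE 0.24, adjusted p = 9.7e-12). PSMB9 was higher in OE by a log2 fold change of 1.94 (SE 0.54, adjusted p = 0.0032). All 3 inducible subunits were higher in OE, though PSMB8 passed the filter on low counts through OE alone. Of the activator subunits, PSME1 and PSME2, the interferon-inducible pair, were higher (log2 fold changes 1.36 and 1.63). PSME1 gave 129, 187 and 143 CPM in OE and 54.6, 60.1 and 64.5 CPM in EV. PSME3, a nuclear activator, gave 241, 240 and 230 CPM in OE and 286, 280 and 277 CPM in EV, and was lower at -0.25 (SE 0.072, adjusted p = 0.0044). The constitutive partners differed less. PSMB7 was higher at 1.17, PSMB6 higher at 0.56, and PSMB5 did not pass the test at 0.24. PSME3 lost its call when the fit held only the 6 untreated libraries and when low counts were not filtered.

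The peptide loading genes were mixed. TAPBPL, the tapasin-related editor of peptide loading, gave 30.1, 36.5 and 44.7 CPM in OE and 5.34, 4.88 and 4.07 CPM in EV (log2 fold change 2.96, SE 0.18). TAP1 gave 67.1, 49.8 and 61.4 CPM in OE and 22.9, 18.3 and 23.3 CPM in EV. TAP2 gave 7.88, 25.3 and 19.7 CPM in OE and 9.38, 3.77 and 9.19 CPM in EV, groups that overlapped, and was called higher at 1.24 (SE 0.51, adjusted p = 0.033). The TAP2 call was lost without EV replicate 2 or OE replicate 2 or 3 (0.88 to 1.60 as each of the 6 libraries was removed), under DESeq2's Wald test (1.28, adjusted p = 0.087) and with a replicate block (1.10, adjusted p = 0.055). Of the general chaperones, CALR was higher by 0.47 and CANX lower by 0.89 on the log2 scale. TAPBP, or tapasin, gave 38.3, 27.1 and 12.7 CPM in OE and 15.3, 23.5 and 15.1 CPM in EV, and PDIA3 gave 337, 297 and 232 CPM in OE and 346, 336 and 345 CPM in EV. Neither passed the test, at 0.54 and -0.25.

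The trimming enzymes went opposite ways although ERAP1 and ERAP2 lie next to each other on chromosome 5. ERAP2 (chr5:96875939-96919716, plus strand) gave 32.8, 30.6 and 26.1 CPM in untreated OE and 5.03, 5.38 and 4.13 CPM in untreated EV (log2 fold change 2.62, SE 0.17, adjusted p = 9.7e-12). ERAP1 (chr5:96760810-96808100, minus strand) gave 20.7, 17.9 and 16.9 CPM in OE and 41.0, 40.3 and 43.2 CPM in EV (log2 fold change -1.17, SE 0.12, adjusted p = 1.2e-08). In neither gene did the lines overlap. NLRC5 was higher in OE, with 94.3, 94.4 and 110 CPM against 32.3, 35.8 and 32.4 CPM, and CIITA was low in both lines, at 2.96 ± 0.615 and 2.83 ± 0.410 CPM (SD, n = 3; log2 fold change 0.066, SE 0.22, adjusted p = 0.80).

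Class II transcripts were scarce everywhere. The 6 class II members with a row summed to 1.03 to 2.42 CPM over the EV libraries and to 6.16 to 10.8 CPM over the OE libraries. CD74 gave 3.76, 3.20 and 5.42 CPM in untreated OE and 0.373, 0.989 and 1.36 CPM in untreated EV (log2 fold change 2.17, SE 0.36, adjusted p = 1.5e-05). HLA-DRA and HLA-DRB1, the chains of the DR molecule, had 0 counts in the 9 EV libraries and 40 and 36 counts over the 3 untreated OE libraries, which is at least 13.4-fold and at least 12.0-fold higher against 3 counts. HLA-DMA gave 1.17, 1.85 and 2.02 CPM in OE and 0.621, 1.11 and 0.617 CPM in EV and was called higher at 1.09 (SE 0.40, adjusted p = 0.018), a call lost without EV replicate 1 or 3 or OE replicate 2 or 3 (0.94 to 1.43). HLA-DMB had 0 counts in EV and 8 over the untreated OE libraries, and HLA-DPA1 had at most 2 counts in any group. Of the lysosomal members, the protease CTSS gave 21.9, 19.5 and 16.2 CPM in untreated OE and 0.186, 0.124 and 0.0617 CPM in EV, LGMN, another protease, was higher by 0.96, and the thiol reductase IFI30 was lower at -2.08 (SE 0.74, adjusted p = 0.016), with 0.431, 0 and 0.252 CPM in OE against 0.621, 1.30 and 1.05 CPM in EV. The IFI30 call was lost without replicate 2 of either line. IFI30 passed the filter on low counts only through EV, where it was higher, so its call carries no weight of its own.

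**Figure D1:**
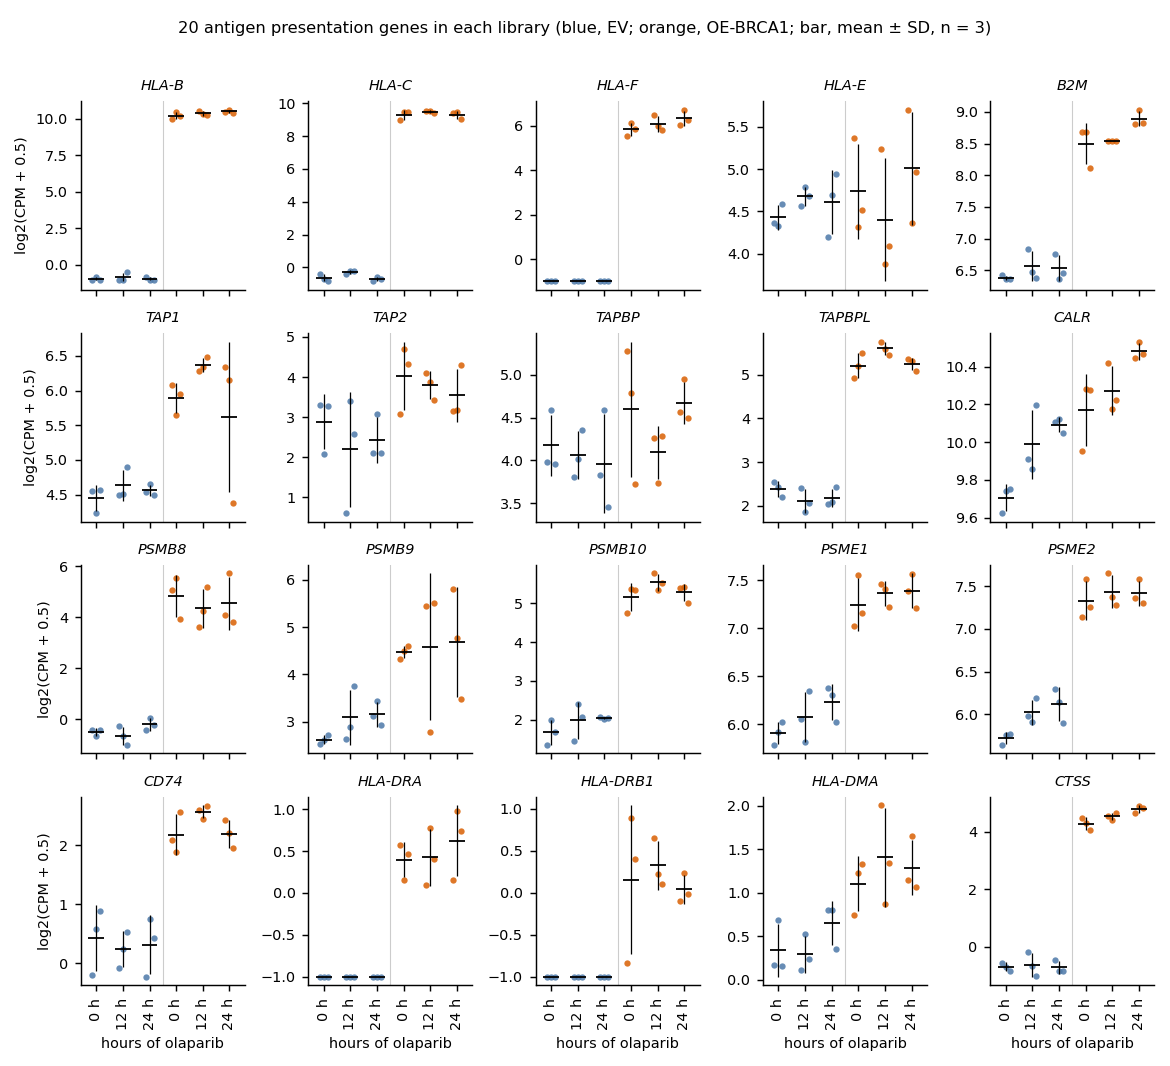
CPM of 20 members in each library, as log2(CPM + 0.5) on the vertical axis with a range of its own in each panel, by line and hours of olaparib (blue points, EV; orange points, OE; bars, mean ± SD, n = 3). HLA-B, HLA-C, HLA-F, PSMB8, CTSS and the DR chains sit at or near the bottom in all EV libraries, and the time points of a line mostly overlap.

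Per kilobase of exonic length, in mean CPM per kb, the untreated OE libraries ranked CALR at 427, HLA-B at 391, HLA-C at 254, PSME1 at 85.9, PDIA3 at 68.1 and B2M at 60.3. The untreated EV libraries ranked CALR at 308, PDIA3 at 80.8 and PSME3 at 54.5, with B2M at 13.7. HLA-B and HLA-C thus ranked next to the most abundant chaperone in OE and above the light chain, and below the light chain in EV. The length is that of all annotated exons of a gene together, 6079 bases for B2M and 3051 for HLA-B. It can exceed the transcripts present, so the order depends on it. In plain CPM, B2M in untreated OE was 366.5, above PDIA3 at 288.7 and PSME1 at 153.1. It still lay below HLA-B at 1194 and HLA-C at 636.8.

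After olaparib, the transactivators and trimming enzymes rose in OE cells. None of the class I chains, immunoproteasome subunits or class II chains passed the test. At 12 h, 3 of 29 members were called, all higher, against 2.31% of all genes tested (1.7% higher). At 24 h, 5 of 29 were called, all higher, against 8.26% of all genes (4.71% higher). The median log2 fold change of the members was 0.25 at 12 h and 0.29 at 24 h, and that of all genes 0.0037 and 0.024. The 12 h and 24 h comparisons share the 3 untreated libraries.

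NLRC5 (chr16:56989485-57083531, plus strand) rose from 94.3, 94.4 and 110 CPM in untreated OE to 186, 188 and 186 CPM at 12 h, and lay at 159, 151 and 161 CPM at 24 h. No treated library reached down to the untreated ones, and the 12 h replicates were tight. The log2 fold change was 0.91 at 12 h (SE 0.096, adjusted p = 4.7e-06) and 0.66 at 24 h (SE 0.096, adjusted p = 0.00015). Both calls were kept whichever single library was removed. In EV the same gene gave 32.3, 35.8 and 32.4 CPM untreated, 32.2, 36.2 and 41.7 CPM at 12 h and 37.8, 41.3 and 42.2 CPM at 24 h. It did not pass the test there, with 0.13 (adjusted p = 0.55) and 0.27 (SE 0.10, adjusted p = 0.073).

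CIITA (chr16:10866222-10943021, plus strand) gave 3.57, 2.34 and 2.96 CPM in untreated OE, 4.97, 5.32 and 5.78 CPM at 12 h and 5.10, 5.16 and 6.68 CPM at 24 h. The treated groups lay above the untreated one, at a level of 38 to 109 counts per library. The log2 fold change was 0.86 at 12 h (SE 0.20, adjusted p = 0.025) and 0.93 at 24 h (SE 0.20, adjusted p = 0.0065). The 12 h call was lost in the fit of the 6 compared libraries and without untreated replicate 2 or 3 or any 12 h replicate (0.71 to 1.01), and the 24 h call was lost without 24 h replicate 3 (0.79 to 1.09). The class II chains below CIITA stayed scarce, with CD74 at 4.85, 4.11 and 3.37 CPM at 24 h.

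ERAP2 rose from 32.8, 30.6 and 26.1 CPM untreated to 47.6, 49.4 and 53.7 CPM at 24 h in OE (log2 fold change 0.75, SE 0.15, adjusted p = 0.0026), with 39.0, 44.0 and 45.4 CPM in between at 12 h (0.52, adjusted p = 0.071). ERAP1 rose from 20.7, 17.9 and 16.9 CPM to 27.5, 25.5 and 27.3 CPM at 24 h (log2 fold change 0.53, SE 0.12, adjusted p = 0.0065), and gave 22.3, 24.3 and 23.9 CPM at 12 h (0.34, adjusted p = 0.17). Neither gene's 24 h libraries overlapped the untreated ones, and both calls were kept whichever library was left out. The ERAP1 call was lost in the fit of the 6 compared libraries alone. LGMN rose from 70.9, 82.4 and 69.0 CPM to 101, 111 and 106 CPM at 24 h (log2 fold change 0.52, SE 0.096, adjusted p = 0.0018). CANX, a lectin chaperone, rose at 12 h from 112, 97.4 and 127 CPM to 166, 165 and 183 CPM (log2 fold change 0.62, SE 0.16, adjusted p = 0.036) and was not called at 24 h (0.29). When single libraries were removed, the CANX call was kept only without untreated replicate 3 (0.53 to 0.71).

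**Figure D2:**
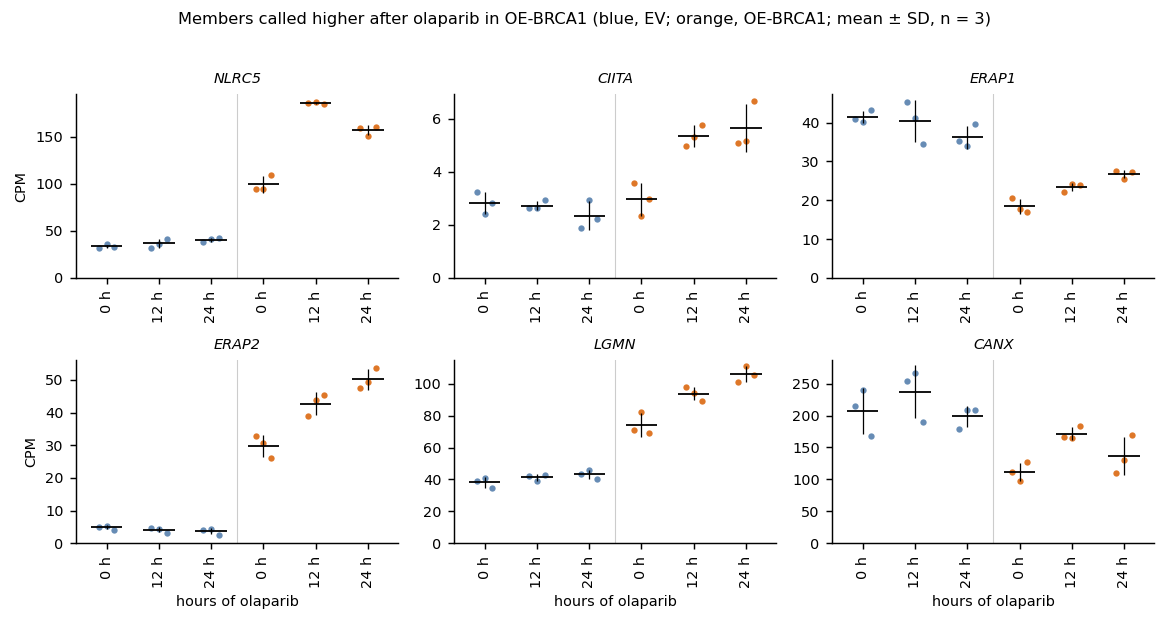
CPM per library on linear axes from 0 for the 6 members called higher after olaparib in OE, by line and hours of olaparib (points, libraries; bars, mean ± SD, n = 3). NLRC5 is highest at 12 h in OE, at 186 ± 1.07 CPM, and ERAP1 is the only panel besides CANX in which untreated EV lies above untreated OE.

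None of the 5 class I chains was called in OE at either time. HLA-B gave 1477, 1262 and 1227 CPM at 12 h and 1440, 1561 and 1352 CPM at 24 h, and both groups overlapped the untreated libraries. Its log2 fold change at 24 h was 0.28 (95% interval -0.022 to 0.58), and that of HLA-C was 0.0021 (-0.28 to 0.29). Both intervals ended below the point estimate of 0.66 for NLRC5. That estimate has an error of its own, and the genes were not tested against each other. B2M gave 371, 373 and 372 CPM at 12 h and 449, 523 and 455 CPM at 24 h, above all untreated libraries at 24 h (log2 fold change 0.38, SE 0.14, adjusted p = 0.094). Without untreated replicate 1 the count of calls at 24 h was 8, with B2M, CTSS and PDIA3 added. HLA-E ranged from 14.2 to 51.6 CPM over the 9 OE libraries, and its log2 fold change at 24 h was 0.30 (95% interval -0.41 to 1.02). HLA-F gave 64.3, 104 and 75.4 CPM at 24 h and overlapped the untreated group (log2 fold change 0.51, 95% interval 0.060 to 0.95, adjusted p = 0.15). The summed level of the 5 class I chain genes was 1991 to 2588 CPM untreated, 2353 to 2699 CPM at 12 h and 2433 to 2920 CPM at 24 h.

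No immunoproteasome member was called in OE at either time. PSME1, PSME2, PSME3 and PSMB10 had log2 fold changes at 24 h of 0.14, 0.078, -0.095 and 0.10 and 95% intervals that all crossed 0 (-0.20 to 0.36 for PSME2). The replicates of PSMB8 and PSMB9 differed severalfold. PSMB9 gave 43.1, 6.41 and 45.1 CPM at 12 h and 55.6, 26.7 and 10.6 CPM at 24 h in OE, and its 95% interval at 24 h ran from -0.56 to 1.58 in log2. A change of the size seen for NLRC5 lies inside that interval and was not detectable in PSMB9. The class II and lysosomal members tested were also uncalled, other than LGMN. CTSS gave 24.6, 29.5 and 28.1 CPM at 24 h against 21.9, 19.5 and 16.2 CPM untreated (log2 fold change 0.51, SE 0.18, adjusted p = 0.087).

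In EV cells no member was called at 12 h of olaparib, where 0.0436% of all genes were called. By unadjusted p under 0.05 there were 2 of 29 members at 12 h, CALR and PSME2, and DESeq2's Wald test also called 0. The share of all genes at that unadjusted threshold is not given here, so the 2 are not read as a result. At 24 h 2 of 29 members were called, both higher, against 13.7% of all genes (8.62% higher). CALR, the soluble lectin chaperone, rose from 788, 856 and 861 CPM to 1103, 1116 and 1057 CPM (log2 fold change 0.39, SE 0.10, adjusted p = 0.021). PSME2 rose from 49.5, 53.6 and 54.0 CPM to 78.1, 70.6 and 59.4 CPM (log2 fold change 0.41, SE 0.13, adjusted p = 0.045). Neither gene's groups overlapped, but both calls sat near the threshold. When single libraries were removed, CALR kept its call only without untreated replicate 2 or 24 h replicate 3 (0.34 to 0.41), and PSME2 only without 24 h replicate 3 (0.31 to 0.50). The count was 0 without untreated replicate 1 or 3 or 24 h replicate 1 or 2.

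**Figure D3:**
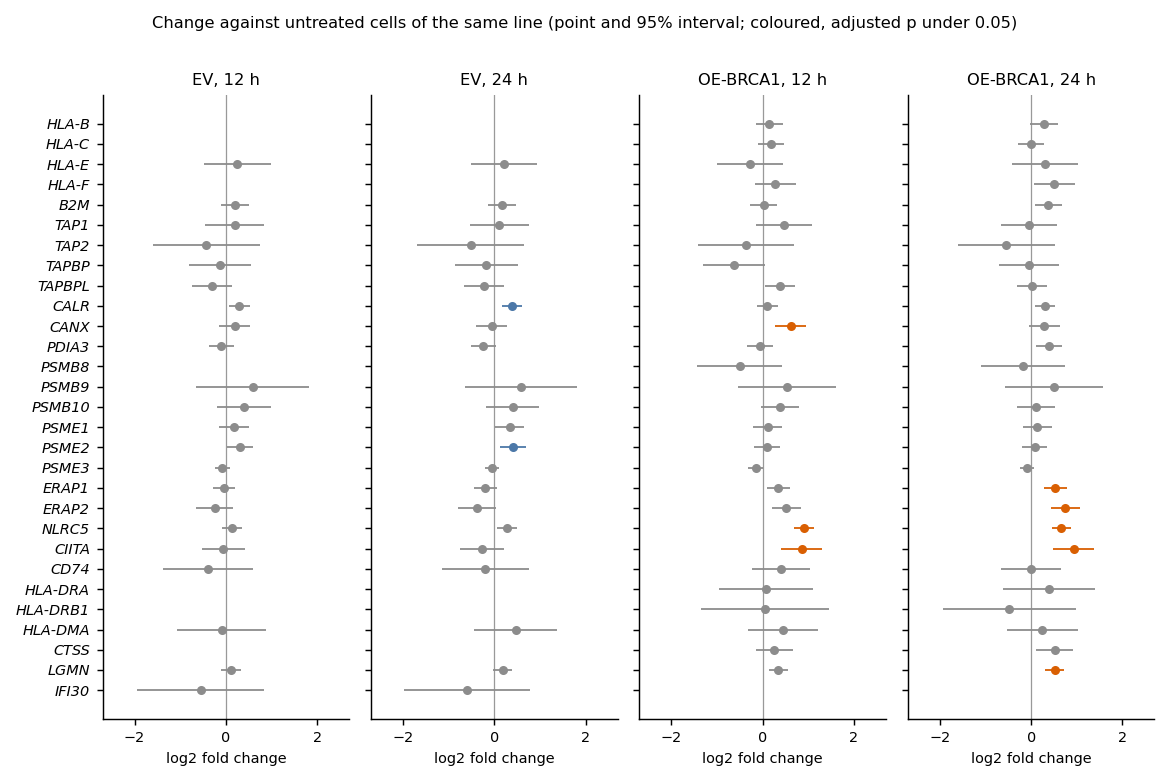
Log2 fold change against untreated cells of the same line for each tested member, with its 95% interval, at 12 h and 24 h in EV and OE (coloured points, adjusted p under 0.05; members with 20 or fewer counts in both groups are left out). The 5 coloured points at 24 h in OE lie at 0.52 to 0.93, and the wide intervals belong to TAP2, PSMB8, PSMB9, the low class II chains and IFI30.

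The difference between the responses of the lines was tested as an interaction. At 12 h it was called for NLRC5 alone, the OE response being larger by 0.78 on the log2 scale (SE 0.14, adjusted p = 0.0084), against 0.518% of all genes. That call was lost in the fit of the 12 libraries of these groups alone. At 24 h it was called for 4 members, all with a larger response in OE, against 19.4% of all genes (8.16% in that direction). The difference was 1.20 for CIITA (SE 0.30, adjusted p = 0.0095), 1.13 for ERAP2 (SE 0.24, adjusted p = 0.0038), 0.73 for ERAP1 (SE 0.16, adjusted p = 0.0050) and 0.63 for PDIA3 (SE 0.18, adjusted p = 0.020). ERAP2 in EV went from 5.03, 5.38 and 4.13 CPM to 4.13, 4.42 and 2.64 CPM, and ERAP1 from 41.0, 40.3 and 43.2 CPM to 35.3, 33.9 and 39.6 CPM, neither passing the test. PDIA3, a disulfide isomerase of the loading complex, gave 364, 392 and 379 CPM at 24 h in OE and 325, 270 and 276 CPM at 24 h in EV, and was uncalled in each line by itself, with 0.39 in OE and -0.24 in EV. Its call was lost without EV 24 h replicate 2 or untreated OE replicate 3 (0.49 to 0.75). NLRC5 at 24 h differed by 0.39 (adjusted p = 0.053). HLA-F, HLA-DRA and HLA-DRB1 had 0 counts in EV, so no difference of responses could be estimated for them.

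Other genes of the pathway were taken from lists of 56, of which 54 had a row and 51 were tested. In OE 3 were higher at 12 h and 8 at 24 h, and none was lower. The shares called were 5.88% at 12 h, against 2.31% of all genes, and 15.7% at 24 h, against 8.26%. The transcription factors that carry interferon signals gave most of these calls. At 12 h STAT2 was higher at 1.33, and IRF1, which binds class I promoters, rose from 40.2, 44.1 and 42.5 CPM to 69.4, 67.7 and 61.9 CPM (log2 fold change 0.65, adjusted p = 0.00037). At 24 h IRF2 (0.54), RFX5 (0.33), a subunit of the complex that binds class I and II promoters, and the class I-like gene MR1 (0.73) joined them. In EV 8 pathway genes were higher and 3 lower at 24 h (21.6% called, against 13.7% of all genes). IRF1 and RFX5 were not called in EV at either time. The constitutive proteasome list, with 17 genes tested, gave no call in OE, while PSMB5 (0.49) and PSMA7 (0.62) were higher and PSME4 (-0.43) lower at 24 h in EV. The other lower genes there were the peptidase TPP2 (-0.37) and MARCHF1 (-1.06), a ubiquitin ligase that acts on class II molecules. Between the untreated lines 26 pathway genes were higher and 12 lower in OE, with IRF1 at 2.32 higher and RFX5 at -1.45 lower. The share called, 74.5%, was near the 72.7% of all genes. Against the direction of most calls in their lists, the proteasome genes PSMA1 (-1.80), PSMA4 (-0.35) and PSME4 (-0.36) and CTSL (-1.14), CTSF (-0.83) and MARCHF8 (-1.63) were lower. Of the other peptidases and loading genes 5 were lower and 3 higher, the latter being NRDC (0.24), HM13 (0.80) and HSPA5 (0.31). The 9 blood and immune markers with a row summed to 98.2 to 104 CPM in untreated OE, 154 to 161 CPM at 12 h and 148 to 156 CPM at 24 h. Of the 5 tested, only CD14 was called, at 0.94 at both times, and PTPRC was at -0.23 and 0.17. Of 8 epithelial markers, 4 were called lower at 24 h in OE, against 651 of all 18335 genes tested. Among the uncalled markers, 3 had positive changes. The part of either list in the members' changes was not tested.

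Promoters of the members were searched for the interferon-stimulated response element, bound by STAT and IRF proteins, and for 2 other motifs. RefSeq promoter windows (GRCh38.p14, 250 bases before to 50 after a start) were matched for 25 of the 32 members, and not for HLA-DRA, PDIA3, LGMN, CTSS, CIITA, NLRC5 and HLA-E. The element was searched as GAAANNGAAA on both strands, the gamma-activated site as TTCNNNGAA, and the CCAAT box as CCAAT. The first was found in 11 of 25 members in any of their windows, against 4.38% of all gene symbols, the gamma-activated site in 3 of 25 against 9.38%, and the CCAAT box in 16 of 25 against 39.7%. In single windows the shares over all promoters were 3.57%, 7.66% and 34.6%. The stretches of 200 bases before the start are given, 5′ to 3′, for ERAP2, called higher at 24 h (chr5:96876300-96876499, plus strand), for 4 uncalled members with the element, PSMB10 (chr16:67936851-67937050, minus strand), TAP1 (chr6:32853705-32853904, minus strand), B2M (chr15:44711317-44711516, plus strand) and HLA-F (chr6:29723234-29723433, plus strand), and for HLA-B (chr6:31357180-31357379, minus strand), in which these letters were not found. Capitals mark matches to the interferon-stimulated response element.
ERAP2: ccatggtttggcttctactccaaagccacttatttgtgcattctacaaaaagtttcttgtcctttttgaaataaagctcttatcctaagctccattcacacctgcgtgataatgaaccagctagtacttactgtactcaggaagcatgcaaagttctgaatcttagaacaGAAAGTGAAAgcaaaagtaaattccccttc
PSMB10: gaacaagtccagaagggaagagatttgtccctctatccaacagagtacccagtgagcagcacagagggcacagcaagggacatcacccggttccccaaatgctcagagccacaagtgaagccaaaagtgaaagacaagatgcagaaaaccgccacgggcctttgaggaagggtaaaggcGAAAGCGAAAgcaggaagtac
TAP1: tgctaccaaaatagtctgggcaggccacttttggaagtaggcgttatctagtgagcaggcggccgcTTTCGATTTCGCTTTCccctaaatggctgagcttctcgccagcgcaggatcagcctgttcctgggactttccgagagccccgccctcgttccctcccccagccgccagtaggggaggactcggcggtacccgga
B2M: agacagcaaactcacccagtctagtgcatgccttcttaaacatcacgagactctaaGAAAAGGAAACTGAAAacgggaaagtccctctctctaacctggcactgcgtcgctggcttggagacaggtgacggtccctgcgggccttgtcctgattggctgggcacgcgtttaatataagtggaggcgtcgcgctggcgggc
HLA-F: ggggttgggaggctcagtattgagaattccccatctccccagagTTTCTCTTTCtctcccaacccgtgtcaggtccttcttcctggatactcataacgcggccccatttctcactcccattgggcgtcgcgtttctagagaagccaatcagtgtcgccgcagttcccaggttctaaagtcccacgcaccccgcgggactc
HLA-B: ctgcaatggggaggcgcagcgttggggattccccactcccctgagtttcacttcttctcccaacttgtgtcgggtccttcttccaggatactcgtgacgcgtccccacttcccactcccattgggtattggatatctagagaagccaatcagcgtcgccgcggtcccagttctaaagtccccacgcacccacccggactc
The match lay at -30 from the start in ERAP2, at -21 in PSMB10 and at -156 in HLA-F, and overlapping matches lay at -144 and -138 in B2M and at -134 and -128 in TAP1. Members with the element fell on both sides of the test. ERAP1 and ERAP2 held it and rose at 24 h in OE, whereas B2M, TAP1, TAP2, TAPBP, HLA-F, PSMB8, PSMB10, PSME1 and PSME2 held it and were not called there. A match is a description of letters in these windows only.

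The members of the MHC region of chromosome 6 were measured less precisely than the others. Of 32 members, 15 lie between 28000000 and 34000000 on that chromosome, and 14 of them had a row. The spread was taken as the SD of log2(CPM + 0.5) between replicates, pooled over the 3 groups of a line, for tested protein-coding genes at a mean of at least 5 CPM. In OE its median was 0.64 over 9 members of the region and 0.16 over 14 members elsewhere. Genes outside the region gave 0.16 (10558 genes), and the 63 other genes of the region gave 0.32. Above the 90th percentile of the genes outside lay 7 of the 9 members of the region, 40 of its 63 other genes and 1 of the 14 members elsewhere, PSMB10, at 0.27. In EV 3 of 5 members of the region and 28 of its 60 other genes lay above it. These shares are given as a description, without a test.

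PSMB9 had the widest spread of the members in OE at 1.13, followed by PSMB8 at 0.88, HLA-E at 0.66, TAP2 at 0.65, TAP1 at 0.64 and TAPBP at 0.51, whereas HLA-B and HLA-C, the highest of the region, had 0.17 and 0.23. Within 1 library, single members could deviate in different directions, and whether deviations follow the library was not tested over all members. In OE 24 h replicate 3, TAP1 (20.3 CPM against 80.4 and 70.7 CPM) and PSMB9 (10.6 CPM) were lowest while TAP2 (19.4 CPM against 8.36 and 8.60 CPM) was highest. In OE 12 h replicate 2, PSMB9 was lowest at 6.41 CPM, while TAP1 gave 80.9 CPM, between its neighbours at 77.6 and 89.1 CPM. HLA-E gave 40.9, 37.3 and 51.6 CPM in replicate 1 of the 3 OE groups, the highest value in each. Whether replicate numbers pair libraries in general was not established. What moves with this spread, other than position in the region, was not tested.

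**Figure D4:**
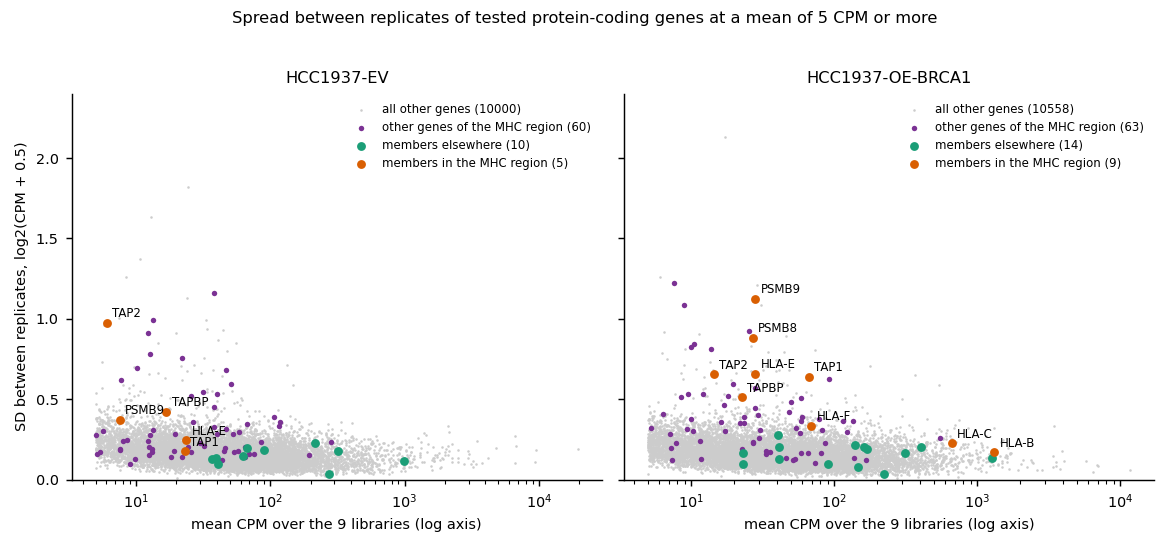
SD of log2(CPM + 0.5) between replicates, pooled over the 3 groups of a line, against mean CPM on a log axis, for EV (left) and OE (right). Orange points, members in the MHC region (5 and 9), purple points, other genes of the region, green points, members elsewhere (10 and 14), grey points, all other genes. Of the members elsewhere in OE, 1 of 14 lies above the 90th percentile of the grey points, and PSMB9 and PSMB8 stand at 1.13 and 0.88.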

How the data were processed

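RNA was extracted with TRIzol and sequenced from NEBNext Ultra II libraries. The authors deposited raw counts per gene, as 18 tables of 1 library and 1 joint table with the same values. Per the labels, the processing notes name HISAT2, featureCounts, DESeq2 and GRCh38 (hg38). Versions, strand setting, annotation release and handling of multiply mapped reads are not given in the sources used here. Identifiers carry version numbers of which 16228 occur in GENCODE 29, which gave coordinates and exonic lengths; 34945 of 35044 identifiers had a symbol.

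The members and gene lists were chosen with earlier results of these data known. Every member is accounted for by name, with values in single libraries where a comparison turns on them, and folds, ranges or counts otherwise. Other pathway genes are given as counts, with IRF1, RFX5, PSMB5, PSMB6, PSMB7 and genes moving against their list named. STAT2, IRF2, MR1 and PSMA7 were named after their values were seen. Some genes of these lists are not reported here. Counts were normalised by TMM and tested in edgeR 4.0.16 (R 4.3.3, limma 3.58.1; glmQLFit, glmQLFTest, filterByExpr by group, all 18 libraries in 1 model, common biological coefficient of variation 12.9%), with Benjamini-Hochberg adjustment over 18335 genes. The script was tested on simulated data. The precision rests on 15081973 to 17571922 counts per library and 3 libraries a group. Groups came from sample titles. An exact permutation test of 3 against 3 libraries cannot go below p = 0.1, so the fit across all genes was used. Alternatives were DESeq2 1.42.0 (size factors and Wald test), no filter, a minimum of 10 counts, the compared groups alone, a replicate block, a log2 minimum of 1 and leaving out each library. Fits of 1 line alone were added after seeing the data.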

Additional observations from a re-analysis of the deposited data

Results flagged for a closer look

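The following members had responses to olaparib that differed between OE and EV in a test of the difference itself (edgeR interaction contrast, Benjamini-Hochberg adjusted). At 12 h the OE response exceeded the EV response by 0.78 on the log2 scale for NLRC5 (adjusted p = 0.0084). At 24 h it exceeded it by 0.63 for PDIA3 (adjusted p = 0.020), 0.73 for ERAP1 (adjusted p = 0.0050), 1.13 for ERAP2 (adjusted p = 0.0038) and 1.20 for CIITA (adjusted p = 0.0095). Over all genes 0.518% were called at 12 h and 19.4% at 24 h, against 3.45% and 13.8% of the members. In OE all 3 treated libraries of NLRC5, PDIA3, ERAP1, ERAP2 and CIITA lay above all 3 untreated ones at the time named. These members were picked by a test on the same libraries, so that separation adds no support. The EV libraries that serve as the other side of these contrasts had EPCAM and KRT5 at or near 0, so the difference cannot be told apart from whatever else separates the libraries.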

How the results depend on the processing

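No called member changed direction under any alternative run. The counts below are of members only, without the share of all genes called under each alternative. A larger or smaller count is therefore not read as a stronger or weaker result for the members. For OE at 12 h, where 3 members were called, DESeq2's Wald test called 6, no filter on low counts 5 and an absolute log2 fold change over 1 called 0, and leaving out a library gave 1 to 2. For OE at 24 h, with 5 called, the Wald test gave 8, no filter 8 and the fold minimum 0, and leaving out a library gave 4 to 8. For EV at 12 h, 0 were called under every alternative. For EV at 24 h, with 2 called, the compared groups alone gave 6 (5 higher and 1 lower), the replicate block 1 and the fold minimum 0, and leaving out a library gave 0 to 2. Between the untreated lines, with 25 called, a minimum of 10 counts in every library gave 16 of the 20 members it left, and leaving out a library gave 22 to 26. For the difference at 12 h, with 1 called, the Wald test gave 2, the compared groups alone 0 and the fold minimum 0, and leaving out a library 1 throughout. For the difference at 24 h, with 4 called, the fold minimum gave 2, and leaving out a library 3 to 4. Fits of the 9 libraries of a line alone, added after seeing the data, gave 4 and 6 members in OE and 0 and 2 in EV. The causes were not tested, except that stricter filters tested fewer members.

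Whether replicate numbers pair the libraries was not established, since differently numbered libraries were not compared. Correlations of same-numbered deviations ran from -0.59 to 0.48. With the replicate block 2 members were called in OE at 12 h and 6 at 24 h. Depth limits the class II chains, CIITA and IFI30, and replicate spread limits PSMB8, PSMB9, TAP1, TAP2, TAPBP and HLA-E.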
